A study of Scophthalmus maximus with 8 samples.

Results

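The comparison of turbot juveniles with embryos used 4 of the 8 RNA-seq libraries of the series, chosen by their labels. The 37 dph group (days post hatching) held 2 post-metamorphic *Scophthalmus maximus*, sampled as bodies from which the hind part had been cut off at the cloaca. The 3 dpf group (days post fertilization) held 2 whole animals at the phylotypic stage. The labels name no treatment for either group, and strain or family is not given in the sources used here. The other 4 libraries, from larvae at 15 dph and at the climax of metamorphosis at 23 dph, were cut like those of 37 dph and served to estimate the spread and to place the ends on the time course. Age and the part of the body sampled changed together between the 2 ends and cannot be told apart.

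The phylotypic stage is the phase of vertebrate development in which the shared body plan is laid down, with the head, somites and neural tube in place while most organs are rudiments. Turbot hatch as symmetrical larvae that swim in open water. Under the control of thyroid hormone they become flat juveniles living on the bottom, with 1 eye moved to the other side of the head and most organs working. The 2 ends of the series therefore span organ formation, hatching, first feeding and metamorphosis. The deposited tables name each gene by an Ensembl identifier alone, and 0 of the 21263 identifiers could be matched to a gene name in the RefSeq table used here (assembly ASM2237912v1). Genes are therefore described by level, direction and timing, and roles, gene families and tissue markers were not analysed here.

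The counts on genes were 19194598 and 24633023 in replicates 1 and 2 of 37 dph and 20107327 and 21627706 in those of 3 dpf. These totals are the depth behind every value. The biological coefficient of variation, the spread between replicates beyond counting error, was 19.7% at 37 dph and 22.0% at 3 dpf. The table of replicate 2 of 3 dpf was deposited under a name that marks it 3 dph, whereas its title and stage label give 3 dpf, and it was used as labelled. Its position was measured on the 9077 genes that differed between the ends in a fit without it, with replicate 1 of 3 dpf set to 0% and the mean of 37 dph to 100%. The median position of replicate 2 was 0.15%. In the converse measurement, on 9425 genes, replicate 1 lay at 6.68% with replicate 2 set to 0%. On this measure both replicates of 3 dpf lay near the 3 dpf end. The 2 measurements used different genes, each chosen with the replicate set to 0%, so the order of the replicates was not read from them. No library of the series is labelled 3 dph, so the measure cannot date replicate 2.

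After genes with low counts were removed by edgeR's filter 18987 were left, of which 9203 differed between 37 dph and 3 dpf, which is 48.5% of the genes tested. A gene differed when its log2 fold change (37 dph over 3 dpf) was at least 1 in size and its p-value in the quasi-likelihood test of edgeR, after Benjamini-Hochberg adjustment, was under 0.05. At 37 dph 5275 genes were higher (27.8% of those tested) and 3928 were lower (20.7%). The libraries of the 2 ends did not overlap in 9198 of the 9203 genes, against 81% of all genes tested. The median log2 fold change over all genes tested was 0.03, and the median size was 0.98. In bulk samples such as these, a lower count from fewer cells of a type and one from less RNA per cell cannot be told apart. Without replicate 2 of 3 dpf, 5229 genes were higher and 3848 lower, and 8339 of the 9203 genes were called again.

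**Figure D1:**
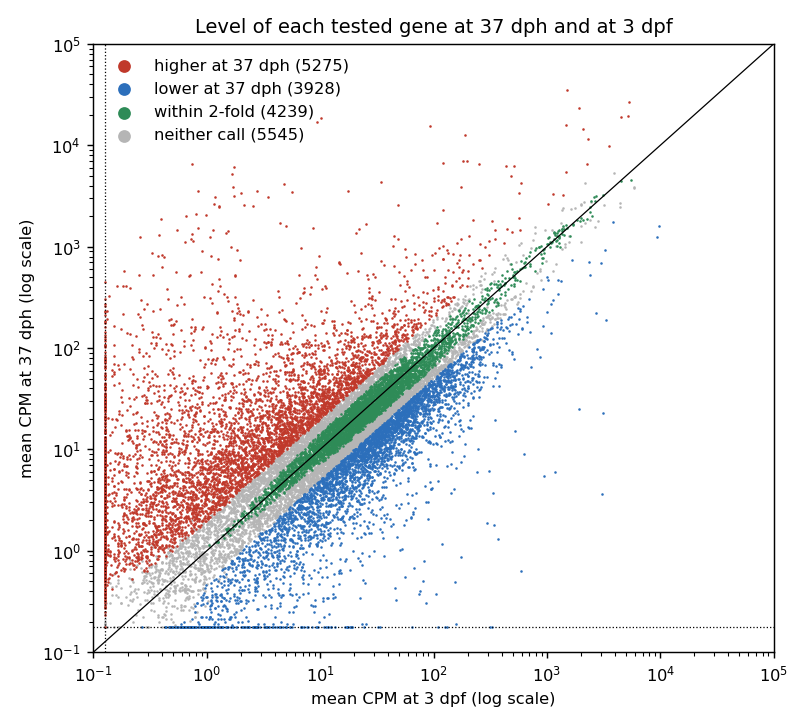
Mean level in CPM of each of the 18987 genes tested, at 37 dph (y axis) and at 3 dpf (x axis). Both axes are on log scales, and points are coloured by call. CPM are counts scaled to 1000000 on the library total multiplied by its TMM factor. Dotted lines mark the level of 3 counts, at which lower values are drawn, and the solid line marks equal levels; the 5275 genes higher at 37 dph reach much farther from it than the 3928 lower ones.

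The 2 directions differed in the size of the change. CPM are gene counts scaled to a total of 1000000, computed on the TMM-scaled library size. The TMM factors were 0.73 and 0.87 at 37 dph and 1.04 and 1.26 at 3 dpf. CPM therefore differ from shares of the gene counts. A level under that of 3 counts was held at 3 counts for the folds of this paragraph. Among the genes higher at 37 dph the median log2 difference was 2.40, with quartiles of 1.59 and 3.86. Among the genes lower at 37 dph the median size was 1.61, with quartiles of 1.26 and 2.24. At least an 8-fold difference was reached by 1964 genes higher at 37 dph (37.2% of them) and by 417 lower genes (10.6%). At 64-fold the numbers were 475 and 51, and at 1024-fold 61 and 2. The change toward 37 dph was thus more often large upward than downward, although the call itself requires only 2-fold in either direction.

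**Figure D2:**
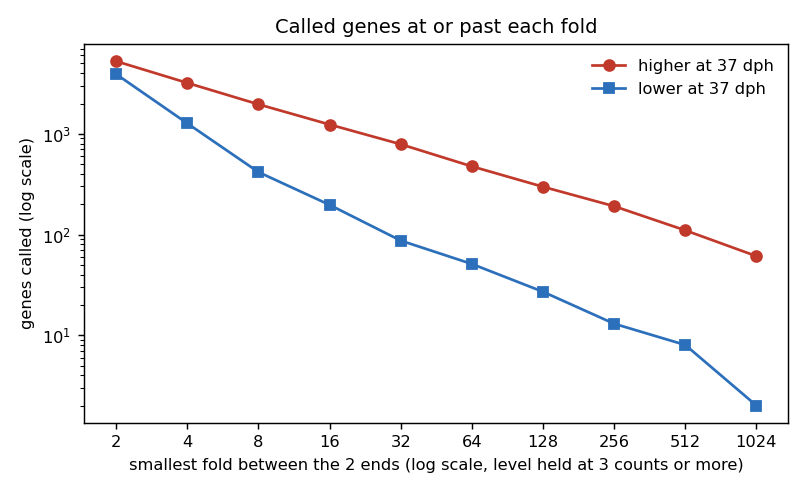
Number of called genes (y axis, log scale) whose difference between 37 dph and 3 dpf reaches at least the fold on the x axis (log scale), separately for genes higher and lower at 37 dph. The lines start at 5263 and 3918 genes at 2-fold and part steadily, to 61 and 2 genes at 1024-fold.

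The direction also varied with the level of a gene, taken as the mean CPM of the 2 ends. Among the 1300 tested genes under 1 CPM, 42.6% were higher at 37 dph and 15.1% lower. A gene this scarce could pass edgeR's filter through 1 stage in which it was higher. How far this shaped the split under 1 CPM was not tested. Between 1 and 10 CPM, 2367 of 6367 genes were higher (37.2%) and 1200 lower (18.8%). Among the 9897 genes between 10 and 100 CPM, 19.9% were higher and 22.4% lower. Between 100 and 1000 CPM, 324 of 1270 genes were higher and 305 lower. Of the 153 genes at 1000 CPM or more, 56 were higher at 37 dph and 12 lower. Genes higher at 37 dph were the larger group in each of these ranges except that from 10 to 100 CPM. Higher genes had a median of 13.0 CPM at 37 dph, and lower genes a median of 26.8 CPM at 3 dpf.

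A gene was taken as detected at 1 end only when both libraries of that end had at least 10 counts. In addition, each library of the other end had to have 3 counts or fewer. The limit of 3 is the expected count up to which a count of 0 is still likely enough. An observed count above 0 does not show absence, so genes inside the rule need not be silent. By this rule 507 of the 21263 genes were detected at 37 dph only and 143 at 3 dpf only. Both sets were small beside the 16390 genes detected at both ends, and 1634 genes stayed at 3 counts or fewer in all 4 libraries. A further 1002 genes were detected at 37 dph and lay between the limits at 3 dpf, and 568 genes were detected at 3 dpf and lay between the limits at 37 dph. When the 4 libraries were thinned to 19194598 counts each, 532 genes were detected at 37 dph only and 169 at 3 dpf only. Genes just outside the rule had 4 to 9 counts in the higher library of the other end. There were 541 of them on the 37 dph side and 243 on the 3 dpf side, so the border of the rule is not sharp. At the border itself, the highest count at the other end was 3 for 106 genes inside the 37 dph set and 4 for 112 genes outside it.

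Of the 507 genes detected at 37 dph only, 136 had 0 counts in both 3 dpf libraries. All 503 that entered the edgeR test were called higher, against 27.8% of all genes, a share that the rule fixes. Their levels at 37 dph had a median of 3.34 CPM, with quartiles of 1.73 and 10.2, and the highest stood at 445 CPM. At least 10 CPM was reached by 130 of the genes and at least 100 CPM by 19. The median ratio of the level at 37 dph to that of 3 counts at 3 dpf was 26.3. Together the 507 genes held 0.652% and 0.631% of the gene counts in the 2 libraries of 37 dph. Most were thus weak next to the abundant transcripts of the juvenile, and in 114 of them the lower 37 dph library had under 20 counts.

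The 143 genes detected at 3 dpf only were fewer, with a lower median CPM at their end. Of them 27 had 0 counts in both 37 dph libraries, and all 141 that entered the test were called lower at 37 dph, against 20.7% of all genes, which the rule again fixes. Their levels at 3 dpf had a median of 1.35 CPM, with quartiles of 0.74 and 3.70, and 21 reached 10 CPM. The median ratio of the level at 3 dpf to that of 3 counts at 37 dph was 7.65. The set held 0.163% and 0.175% of the gene counts in the 2 libraries of 3 dpf, and 1 gene supplied 22.0% of these counts. The number of genes was 276 without replicate 2 of 37 dph, the deeper library of that end, and stood at 161 without replicate 2 of 3 dpf. The 507 genes of the 37 dph set became 682 without replicate 2 of 3 dpf. Leaving a library out removes a condition of the rule, so these numbers could not fall.

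Genes detected at 37 dph only were mostly detected before metamorphosis. At 15 dph 385 of the 507 (75.9%) already had at least 10 counts in both libraries and at 23 dph 415 (81.9%), and 371 were detected at both. Of all 21263 genes, 18484 and 18472 had at least 10 counts in the single libraries of 15 dph. In those of 23 dph 18280 and 18202 did. Nothing particular to the set of 507 is read from its share. Only 8 genes stayed at 3 counts or fewer in every library of 15 and 23 dph and so passed this limit after the climax. The median level of the 507 genes was 0.042 CPM at 3 dpf, reached 1.32 CPM at 15 dph and 1.80 CPM at 23 dph, and stood at 3.34 CPM in juveniles. At least 50% of the 37 dph level was reached by 201 genes at 15 dph and by 276 at 23 dph, while 83 and 78 genes stood above it.

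Genes detected at 3 dpf only were mostly below the limit of detection at 15 dph, but many were not at the floor. At 15 dph 16 of the 143 (11.2%) were still detected, 63 lay between the limits and 64 were at 3 counts or fewer in each library. At 23 dph 6 were still detected, 57 lay between the limits and 80 were at 3 counts or fewer. At both stages 58 genes were at 3 counts or fewer. All 6 genes detected at 23 dph were also detected at 15 dph. The share of gene counts in this set was 0.0046% and 0.0056% in the 2 libraries of 15 dph and 0.0021% and 0.0026% in those of 23 dph. These courses describe genes chosen at the 2 ends, and no test was made on them.

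**Figure D3:**
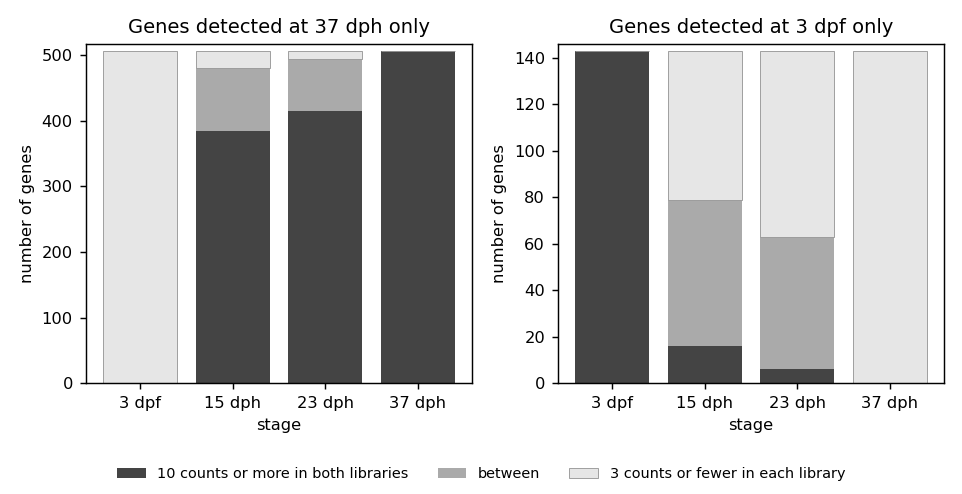
Number of genes (y axis) in each detection class at the 4 stages (x axis), for the 507 genes detected at 37 dph only (left) and the 143 detected at 3 dpf only (right). Dark bars count genes with 10 or more counts in both libraries, which were 385 and 16 at 15 dph and 415 and 6 at 23 dph, and pale bars count genes with 3 counts or fewer in each library.

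In each set the gene with the highest level over the limit of 3 counts is given. Both genes were chosen by the values shown, so their intervals and p-values are descriptive and add no separate support. ENSSMAG00000034565, the gene of the 37 dph set, had 7509 and 7618 counts at 37 dph and 3 and 1 counts at 3 dpf. This is 445 ± 128 CPM at 37 dph against 0.090 ± 0.075 CPM at 3 dpf (SD, n = 2 each). The ratio of counts per scaled total was 5121, with a 95% exact binomial interval from 2000 to 18799 that covers counting error only. Held at 3 counts for 3 dpf, the ratio was 3506. The log2 fold change was 12.28 (standard error 0.44, adjusted p = 8.2e-09 by edgeR), and it was 13.35 without replicate 1 and 11.54 without replicate 2 of 3 dpf. The gene was already on at 15 dph, with 2611 and 2153 counts, and stood at 194 CPM at 23 dph, so its mean level was higher at each later stage.

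ENSSMAG00000010389, the gene of the 3 dpf set, had 2 and 0 counts at 37 dph against 7492 and 8036 counts at 3 dpf. Its mean level at 3 dpf was 327 CPM. The ratio of 3 dpf over 37 dph was 5733, with a 95% exact binomial interval from 1587 to 47345. Held at 3 counts for 37 dph, the ratio was 1850. The log2 fold change of 37 dph over 3 dpf was -12.35 (standard error 0.44, adjusted p = 8.2e-09 by edgeR). It was -15.85 without replicate 1 of 37 dph, which leaves 0 counts at that end, and -11.13 without replicate 2. In contrast to the juvenile gene it was under the limit of 3 counts at the next stage sampled, with 1 and 2 counts at 15 dph and 1 and 0 at 23 dph. No stage between 3 dpf and 15 dph was sampled, so the time of its loss in this interval is not known. The sampled part of the body changed in the same interval.

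Among genes with at least 10 counts in all 4 end libraries, the most abundant gene higher at 37 dph was ENSSMAG00000032054. It had 46745 and 23763 CPM at 37 dph against 2131 and 864 CPM at 3 dpf. Replicate 1 was well above replicate 2 at both ends, but the ends did not overlap. The log2 fold change was 4.56 (standard error 0.50, adjusted p = 1.6e-05 by edgeR), and it was 5.35 without replicate 1 of 3 dpf. This single gene supplied 2.75% of the gene counts at 37 dph and 0.165% at 3 dpf, on average. It stood at 3508 CPM in larvae of 15 dph and reached 7231 CPM at the climax (23 dph), so most of the linear increase fell after the climax.

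The most abundant gene lower at 37 dph was ENSSMAG00000007743, with 1564 and 1655 CPM at 37 dph against 11797 and 7735 CPM at 3 dpf. The log2 fold change was -2.60 (standard error 0.26, adjusted p = 9.5e-06 by edgeR). It stayed an abundant transcript at 37 dph and is no off gene. In larvae of 15 dph it had come to 2620 CPM and at the climax (23 dph) to 1883 CPM, so most of the decrease fell before 15 dph. Near-identical copies or overlapping genes could share reads with these genes, which was not analysed here.

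The gene counts were spread over fewer genes at 37 dph than at 3 dpf. The 20 most abundant genes of a library held 24.9% and 20.7% of the gene counts at 37 dph against 11.6% and 10.1% at 3 dpf. A total of 165 and 228 genes sufficed for 50% of the counts at 37 dph, and 479 and 795 were needed at 3 dpf. The ends did not overlap in either measure, but with 2 libraries a group the exact permutation test cannot give a p-value below 0.33. Although its counts were more concentrated, 37 dph had more genes detected. At least 10 counts were found for 17964 and 18508 genes at 37 dph and for 17302 and 17599 at 3 dpf. After thinning to equal depth the numbers were 17964 and 18265 at 37 dph and 17233 and 17459 at 3 dpf. Within both ends replicate 1 was the shallower and the more concentrated library.

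The leading genes of the 2 ends overlapped in part. Of the 20 genes with the highest mean CPM at each end, 4 were on both lists, and of the 100 highest 52 were. All 20 leading genes of 37 dph were called higher there, against 27.8% of all genes. Of the 20 leading genes of 3 dpf, 7 were called lower at 37 dph, against 20.7% of all genes tested. A further 4 were called higher, against 27.8%, and 3 were within 2-fold, against 22.3%. The other 6 had neither call, against 29.2%. The 20 leading genes of 37 dph had a median rank of 138 at 3 dpf, and the lowest of them stood at 0.74 CPM there. The 20 leading genes of 3 dpf had a median rank of 50 at 37 dph and held 9.34% and 8.74% of the gene counts at 37 dph against 11.5% and 9.98% at 3 dpf. The lowest of these 20 genes of 3 dpf stood at 3.65 CPM at 37 dph. On the lists of 20, most leading genes of either end were thus not on the list of the other. By median rank, the leading genes of 3 dpf stood higher at 37 dph than those of 37 dph did at 3 dpf. On the lists of 100, the leading genes of 37 dph had a median rank of 76 at 3 dpf. Those of 3 dpf had a median rank of 97.5 at 37 dph, so the contrast was not seen there. The lists were made with the values that are tested, so these counts are descriptive.

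Genes higher and lower at 37 dph were 27.8% and 20.7% of those tested, and their shares of the gene counts changed between the ends. The sets were chosen by these same values, so the shares are descriptive. The 5275 genes higher at 37 dph held 56.9% and 51.5% of the gene counts at 37 dph against 9.81% and 9.34% at 3 dpf. The 3928 lower genes held 5.53% and 6.69% at 37 dph against 29.9% and 31.6% at 3 dpf. Counts are relative within a library, so the share of one set falls where that of another increases.

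A missed test does not show that a gene is unchanged, and equivalence was therefore tested. Each gene was tested in edgeR against log2 fold changes of +1 and -1, and it was counted as within 2-fold when both were rejected in its favour with an adjusted p-value under 0.05. Between 37 dph and 3 dpf 4239 genes were within 2-fold, which is 22.3% of the genes tested. Their median log2 difference was 0.22 in size, and 2529 of them differed by less than 1.2-fold in the estimate. They held 20.7% and 23.6% of the gene counts at 37 dph against 32.3% and 31.6% at 3 dpf. A call within 2-fold does not exclude a smaller difference. Of the 4239 genes, 617 had an adjusted p-value under 0.05 in edgeR's test of difference, against 13139 of the 18987 tested. The ends did not overlap in 1904 of the 4239, against 81% of all genes tested. The remaining 5545 genes (29.2%) were called neither different nor within 2-fold. Of these, 3319 had an adjusted p-value under 0.05 in edgeR's test of difference, with a log2 fold change under 1 in size. The ends did not overlap in 4281 of the 5545, against 81% of all genes tested. Of the genes under 1 CPM 0 could be called within 2-fold, against 30.9% of those between 10 and 100 CPM, and the median standard error was 0.56 for these scarce genes and 0.19 in the middle range.

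The number of genes within 2-fold varied between fits. Replicates of 15 and 23 dph, with coefficients of variation of 8.15% and 10.1%, varied less than those of the ends, and the fit shares 1 spread over the 4 stages. In limma's voom without weights, added after the data were seen, 4262 genes were within 2-fold. With a weight for each stage in voom 2489 were, of which 2485 were among the 4239. With the 4 end libraries alone, which leave 2 residual degrees of freedom, edgeR called 0 genes, with a smallest adjusted p-value of 0.051 and 4918 genes at an unadjusted p-value under 0.05, and voom with stage weights called 1408. The same 4 libraries with the replicate number as a block gave 4005 in edgeR. The block leaves this fit fewer residual degrees of freedom still, and the labels give no reason for it. In edgeR's test of difference, ENSSMAG00000034565, a gene described above, had an adjusted p of 6.8e-21 with the block and 1.7e-08 without it. Nothing is concluded from the 4005. The fit of the stages in edgeR gave 2582 genes when replicate 2 of 37 dph was left out and 2832 when its replicate 1 was left out, and 4019 and 3972 when replicate 2 or replicate 1 of 3 dpf was left out.

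Genes were also followed over the whole span. Within 2-fold in each of the 6 pairs of stages were 2247 genes, 11.8% of those tested and 53.0% of the 4239, and 1575 by voom with stage weights. Without replicate 2 of 37 dph the number was 1423. These 2247 genes had a median of 27.4 CPM, and 19 of them stood at 1000 CPM or more. They held 9.84% and 11.3% of the gene counts at 37 dph and 15.0% and 16.1% at 3 dpf. Of the 6 pairs of stages, 37 dph and 3 dpf had the fewest genes within 2-fold, with 4239, against 5789 for 23 dph over 3 dpf and 6222 for 15 dph over 3 dpf. These comparisons share the 3 dpf libraries.

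The most abundant gene within 2-fold over all 6 pairs was ENSSMAG00000011593, with 4672 and 4213 CPM at 37 dph against 4640 and 4298 CPM at 3 dpf. The ranges of the 2 ends overlapped. The log2 fold change was -0.01 (standard error 0.22), with an adjusted p-value of 0.0072 for equivalence in edgeR, and over all 8 libraries the gene ranged from 3832 to 4672 CPM. In the fit of the 4 end libraries alone its adjusted p-value for equivalence was 0.078. The next, ENSSMAG00000008680, stood at 1986 and 2015 CPM at 37 dph against 3086 and 1936 CPM at 3 dpf. Its log2 fold change was -0.33 (standard error 0.24), and its adjusted p-value for equivalence in edgeR was 0.045. This call was lost when replicate 1 or replicate 2 of 37 dph was left out (adjusted p-values of 0.084 and 0.11) and when replicate 2 of 3 dpf was left out, where the log2 fold change was -0.63 with an adjusted p-value of 0.074.

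**Figure D4:**
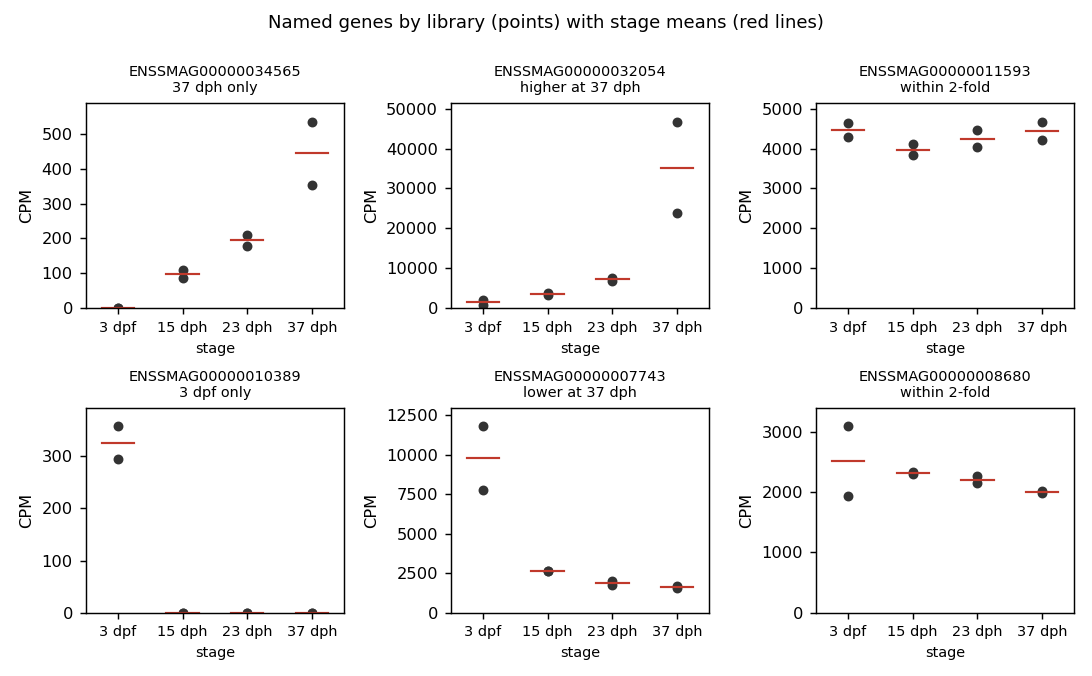
Level in CPM (y axes, linear from 0) of the 6 named genes in each of the 8 libraries (points) at the 4 stages (x axes), with red lines at the stage means. The left column shows the gene detected at 37 dph only, which climbs to 535 and 354 CPM, above the gene detected at 3 dpf only, the middle column the abundant genes that were higher and lower at 37 dph, and the right column the 2 genes within 2-fold.

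Some genes with like levels at the ends differed in between. Of the 4239 genes within 2-fold between the ends, 407 (9.60%) were called at 15 or 23 dph against at least 1 of the ends, against 53.7% of all genes tested. The end libraries entered both the choice of the 4239 genes and these calls, so nothing is read from the difference. At 15 dph 62 of the 4239 genes were higher than both ends and 96 lower than both. Over all 18987 genes tested the numbers were 364 (1.92%) and 334 (1.76%). At 23 dph 33 of the 4239 were higher than both ends and 43 lower, against 195 (1.03%) and 156 (0.822%) of all genes tested. The same limit holds for these counts, and nothing particular to the 4239 genes is read from them.

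For the genes that differed, the middle stages were placed on the log2 scale (CPM plus 0.5) with the mean of 3 dpf at 0% and the mean of 37 dph at 100%. Over the 5275 genes higher at 37 dph, the mean position was 74.9% and 72.3% in the libraries of 15 dph and 80.9% and 80.6% in those of 23 dph. Over the 3928 lower genes it was 65.5% and 63.1% at 15 dph and 72.9% and 72.4% at 23 dph. Most of the log2 change between the ends had thus been passed at 15 dph, before metamorphosis, and the replicates of 15 and 23 dph differed by less than the step between these stages. The end libraries define the scale, so these positions are a description. The interval from 3 dpf to 15 dph is also the one in which the sampled part of the body changed.

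Single genes followed this course unevenly. At 15 dph 69.6% of the higher genes and 65.1% of the lower genes had passed 50% of their change. At 15 dph 26.2% of the higher genes stood above their 37 dph level, and 15.7% of the lower genes stood below theirs. On the other hand, 270 of the higher genes were lower at 15 dph than at 3 dpf, and 170 of the lower genes were higher. A change of 1 direction through all 4 stage means was seen in 2560 of the higher genes (48.5%) and 2032 of the lower genes (51.7%).

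**Figure D5:**
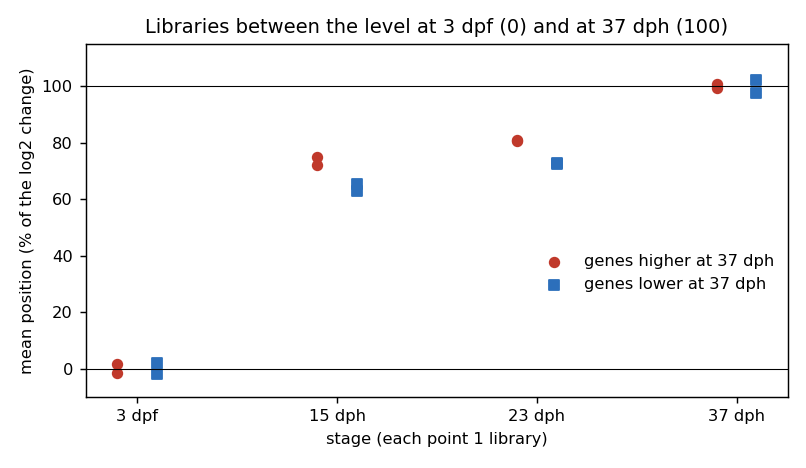
Mean position of each of the 8 libraries (points, x axis by stage) between the level at 3 dpf (0%) and at 37 dph (100%) on the y axis, over the 5275 genes higher and the 3928 genes lower at 37 dph. The libraries of 15 dph lie between 63.1% and 74.9% and those of 23 dph between 72.4% and 80.9%, with the higher genes above the lower ones at both stages.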

How the data were processed

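RNA was sequenced from 8 turbot, with poly(A)-selected, stranded, paired-end libraries. Read quality was checked by the authors in FastQC 0.11.8 and adapters were trimmed with Trimmomatic. Alignment to ASM1334776v1 used STAR 2.7.9a, and HTSeq-count 2.0.2 gave the raw counts that were deposited for each library. The strand setting and annotation release are not given in the sources used here. The 5 summary entries of each table were left out of totals and tests. In the 4 end libraries, entries with no feature were 15.3% to 18.9% of the aligned ones, ambiguous entries 1.71% to 2.57% and entries not unique 2.52% to 7.00%, and 49.3% of all entries were listed as not aligned. Entries listed so nearly equal the aligned ones in number, what they count is not settled here, and they are not read as a share of unaligned reads. Floors and intervals cover counting error only.

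Counts were analysed with edgeR 4.0.16, limma 3.58.1 and DESeq2 1.42.0 in R 4.3.3. Genes passing filterByExpr were normalized by TMM and fitted with 4 stage means over all 8 libraries by quasi-likelihood, with 4 residual degrees of freedom. Adjusted p-values are Benjamini-Hochberg values over all 18987 genes. Equivalence used 2 one-sided tests with shifted offsets. The standard error is the log2 fold change divided by the square root of the F statistic. The study describes the replicates as independent. The p-values of the main fit rest on 1 spread per gene, shared by the replicates of all 4 stages, and not on that of the ends alone. Alternatives covered normalization, filter, test, fold limits, libraries, thinning and the replicate block. Named genes followed a rule on level, detection and calls in these same data, so their p-values are no separate support. The groups, rules and lists were chosen with earlier results of these data known. The planned gene lists were not run, for want of names, and chromatin data were not used here.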

Additional observations from a re-analysis of the deposited data

Results flagged for a closer look

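Reads that aligned to more than 1 place are outside the gene counts used in the comparisons and are listed only in a summary entry of each table. Their share of aligned entries was 6.81% ± 0.27 at 37 dph and 2.61% ± 0.13 at 3 dpf (SD, n = 2 each), and the ends did not overlap. This entry was singled out because it is a signal in data that no comparison uses. With 2 libraries a group the exact permutation test cannot give a p-value below 0.33. The part of these reads in the gene counts was not tested. With 2 libraries a stage, single outlying libraries could not be tested for.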

How the results depend on the processing

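Of 185 values recomputed under alternatives, 156 kept their call or stayed within the limit set for them, which was 1.5 times for counts of genes and 1 SD between replicates for other values, and 0 reversed. Where a setting does not itself give the cause, the cause was not tested. Without a minimum fold change 6351 genes were lower at 37 dph, and at a minimum log2 fold change of 2, 4524 differed, 3238 higher and 1286 lower, by construction. Genes within 2-fold numbered 2489 by limma voom with stage weights and 0 in edgeR on the 4 end libraries. At a limit of 1.5-fold edgeR and voom called 0 between the ends and edgeR 0 over all 6 pairs, with 2094 at an unadjusted p-value under 0.05 in edgeR between the ends. With each replicate left out, where a lone library is assumed to vary like the other stages, 9077 to 9425 genes differed, 2582 to 4019 were within 2-fold between the ends and 1423 to 2521 over all pairs, and 533 to 682 were detected at 37 dph only and 161 to 276 at 3 dpf only. The numbers detected at 1 end only rest on no assumed spread, and they cannot fall when a library, and so a condition of the rule, is left out. Genes detected at 3 dpf only numbered 219 at 5 counts and 92 at 20 counts. With 0 counts required at the other end, 136 genes were detected at 37 dph only and 27 at 3 dpf only, with 0.0723% and 0.0266% of the counts of their ends. The 10 most abundant genes held 16.2% of the counts at 37 dph and 6.92% at 3 dpf, and the 100 most abundant 40.9% and 26.6%. The median position over called genes was 67.7% at 15 dph and 77.7% at 23 dph.

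With the replicate number as a block, 9189 genes differed and 4298 were within 2-fold. On the 4 end libraries, a block added after the data were seen gave 9078 and 4005, and ENSSMAG00000008680 lost its call of equivalence there (adjusted p = 0.055). That fit has fewer residual degrees of freedom than the 2 of the same libraries without a block. The labels give no reason for pairing. Between 37 dph and 3 dpf the correlation over genes of the differences between replicates 1 and 2 was 0.26. This was the highest of the 6 pairs of stages, and the lowest was -0.17. Whether the replicate numbers mark an effect shared by the 2 ends was not tested. The main fit left the samples unpaired on the ground of the labels alone. Genes under 1 CPM had too few counts for a call of equivalence at this depth.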

Other observations

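Some genes split the replicates of an end, with at least 10 counts in 1 library and 3 or fewer in the other. At 37 dph 101 genes were detected in replicate 2 alone and 5 in replicate 1 alone, and at 3 dpf 52 in replicate 2 alone and 18 in replicate 1 alone. At both ends replicate 2 is the deeper library, and the median count of these genes in the library that detected them was from 10 to 14. Of the 52 genes seen in replicate 2 of 3 dpf alone, 29 were detected in both libraries of 37 dph and 41 in both of 15 dph, and of the 18 seen in replicate 1 alone, 14 were detected at each of these stages.

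Genes confined to the middle of the time course were rare. Of the 1634 genes at 3 counts or fewer in all libraries of 37 dph and 3 dpf, 4 were detected in both libraries of 15 or 23 dph.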
